A study of Mus musculus with 8 samples.

Results

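RNA levels of 9 genes that make, break down, carry or sense retinoic acid were examined in mouse embryonic stem cells of a parental and a Tbx1-mutant line after differentiation towards precardiac mesoderm. The genes were a named list of Rdh10, Aldh1a2, Dhrs3, Cyp26a1, Cyp26b1, Crabp1, Crabp2, Rara and Rarb, and each symbol matched 1 of the 55487 gene identifiers in the deposited count table. Of the 8 libraries, 4 came from the parental line E14-Tg2a, labelled WT, and 4 from line 4D derived from it, labelled Tbx1-/-. Both lines were differentiated in serum-free medium by the same published protocol and harvested on day 6, and no agent was given to either line beyond that protocol as far as the labels state. All 4 mutant libraries came from line 4D, so that the Tbx1 genotype and other properties of that line cannot be told apart. Tbx1 encodes a T-box transcription factor of the pharynx and second heart field, and the human gene lies in the region deleted in DiGeorge syndrome.

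Retinoic acid is made from vitamin A in a pair of oxidation steps, from retinol to retinaldehyde and from retinaldehyde to retinoic acid, and is broken down by enzymes of the Cyp26 family. Inside the cell it is held by small binding proteins and passed to nuclear receptors, the RARs, which sit on DNA with RXR partners and switch on target genes. In the embryo the posterior second heart field lies in tissue that makes retinoic acid, and both too little and too much of it disturb the inflow and outflow parts of the heart.

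Libraries were made with QuantSeq, which reads the 3′ end of polyadenylated RNA. Long and short transcripts then have equal weight, and levels of different genes can be set side by side. The unit is CPM, the count after scaling each library to the same total by the trimmed mean of M values, and total counts ran from 3803561 to 6293907 per library. Tbx1 itself was counted 39, 65, 38 and 22 times in the parental libraries and 3, 0, 1 and 0 times in the mutant libraries, in the direction the labels give. The precardiac mesoderm markers were present, with all 10 listed genes counted and a summed level of 1347 to 1684 CPM in parental and 1351 to 1544 CPM in mutant libraries, whereas 10 pluripotency genes together reached 37.0 to 66.8 CPM. Of lists of 10 genes each for other cell types, the summed level of endothelial and blood markers was 505.4 to 811.2 CPM in parental and 1058 to 1790 CPM in mutant libraries, without overlap. The embryonic globins Hba-x and Hbb-bh1 were the 2 called genes of that list, and without them, a choice made after their values were seen, the other 8 summed to 404.3 to 657 and 456.4 to 953.3 CPM, with overlap. Endoderm markers together had 215.1 to 351.8 and 193.3 to 233.7 CPM, neural markers 46.6 to 58.6 and 32.6 to 61.0 CPM, and epicardial markers 38.5 to 63.5 and 42.1 to 64.9 CPM in parental and mutant libraries, each with overlap. Single genes could differ all the same. Of 7 tested endoderm genes, Foxa2 and Krt18 were called lower in the mutant line (edgeR adjusted p of 0.0254 and 0.0133). Of 10 tested precardiac genes, Gata6 was called higher (edgeR adjusted p = 0.00516). Of all tested genes, 1.42% were called. Mutant library 4 stood apart: its log2 CPM correlated across genes at 0.857 to 0.881 with the other libraries, against 0.92 to 0.944 for all other pairs. It also had the fewest genes with at least 1 count, 14850, against 18213 to 19134 in the other libraries. In bulk RNA, fewer cells of a type and less RNA per cell cannot be told apart.

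Among the promoters of these genes, those of Cyp26a1 and Rarb carry the classical element that retinoic acid receptors bind, a direct repeat of a 6-base half-site with a 5-base spacer, called DR5. The elements are shown because both genes are textbook direct targets of the receptors and serve as readouts of retinoic acid exposure. Capitals mark the half-sites, and each sequence is written 5′ to 3′ on the minus strand of GRCm38.p6, from RefSeq promoter windows of 250 bases before to 50 bases after the gene's start.
Cyp26a1 (chr19:37697770-37697798): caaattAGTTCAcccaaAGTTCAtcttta
Rarb (chr14:16575507-16575535): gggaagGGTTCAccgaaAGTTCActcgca
The Rarb element lies on the strand of its gene, 53 to 37 bases before the RefSeq start, and the annotation also holds Rarb transcripts that begin further upstream. The Cyp26a1 element lies on the strand opposite to its gene, 32 to 16 bases before the start. The half-site was searched on both strands as AGGTCA or GGGTCA. The same sites with T before TCA, AGTTCA for the former and GGTTCA for the latter, were also taken. A DR5 was any 2 such half-sites in the same direction 5 bases apart. Of 32851 windows of 300 bases, 32 (0.0974%) held a DR5 and 43.7% held at least 1 half-site. Windows were found for 7 of the 9 genes, all but Rdh10 and Crabp2. A DR5 was found in 2 of the 7, and Rara was the other gene with a half-site. A match describes the letters in the window only and is no evidence of binding in these cells.

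Of the 9 genes, 8 passed the filter on low counts and entered the comparison of the lines, and Crabp1 was the gene called, lower in the mutant line. A gene was called when its Benjamini-Hochberg adjusted p in edgeR's quasi-likelihood test was under 0.05 over all 13280 genes tested. In the same test 188 of the 13280 genes (1.42%) were called, 0.745% of all tested genes higher and 0.67% lower in the mutant line. The genes lay on both sides of zero, with 5 of the 8 log2 fold changes above 0 and a median of 0.19, beside a median of 0.00 (0.001) over all tested genes. The median absolute log2 fold change was 0.97, beside 0.24 over all tested genes, with genes of few counts among the 8. An unadjusted p under 0.05 was found for 3 of the 8 genes (Crabp1, Rdh10 and Aldh1a2) and for 11.9% of all tested genes.

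**Figure D1:**
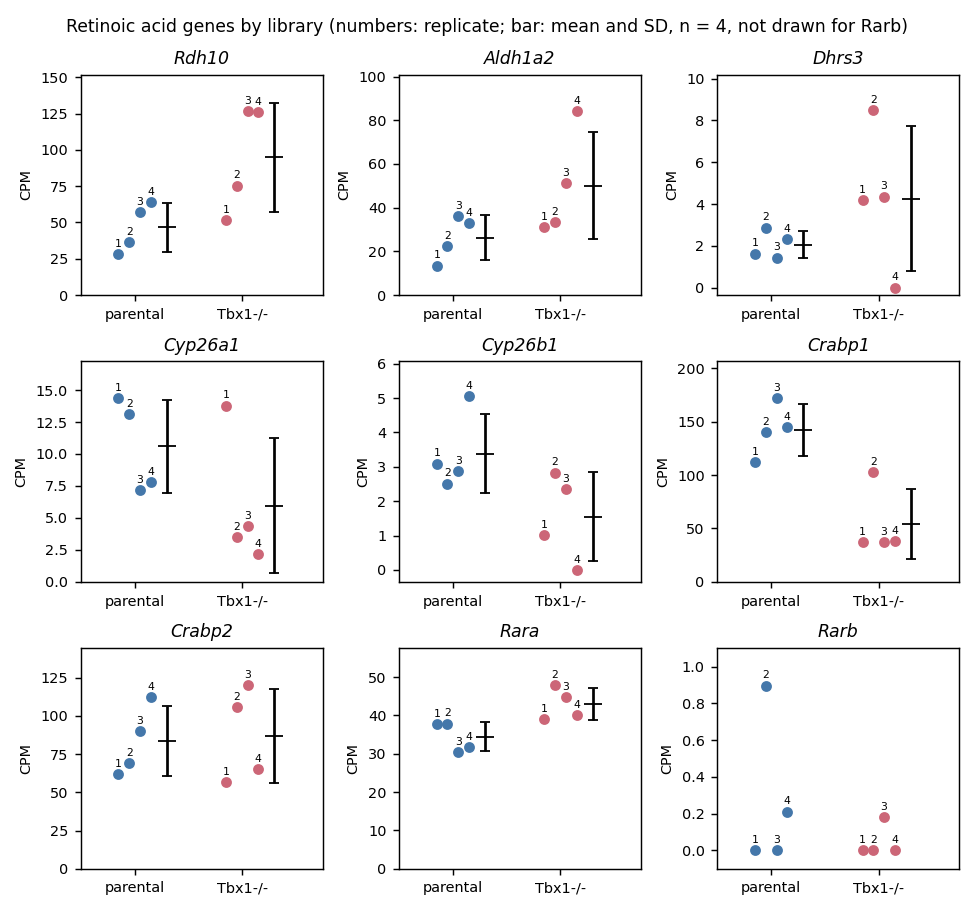
CPM (vertical axis, linear, a scale of its own per gene) of the 9 retinoic acid genes in each library, with parental libraries in blue, Tbx1-/- libraries in red and the replicate number at each point; black bars give the mean and SD of 4 libraries, except for Rarb. Crabp1 and Rara have no overlap between the lines, as is so for 7.52% of all tested genes. The synthesis genes Rdh10 and Aldh1a2 are shifted upwards in the mutant line with overlap.

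The mean levels of both synthesis enzymes were higher in the mutant line, 2.04-fold for Rdh10 and 1.91-fold for Aldh1a2, without passing the threshold over all genes. Rdh10 (ENSMUSG00000025921.7, chromosome 1, 16105774 to 16133734, plus strand, GRCm38) encodes the retinol dehydrogenase that carries out the first oxidation in the embryo. It stood at 28.2, 36.4, 57.3 and 64.3 CPM in parental libraries 1 to 4 and at 51.6, 75.4, 126.6 and 126.2 CPM in mutant libraries 1 to 4. Mutant libraries 2 to 4 were above every parental library, and mutant library 1 lay inside the parental range. The means were 46.5 ± 17.0 and 94.9 ± 37.6 CPM (SD, n = 4), with a log2 fold change of 1.03 ± 0.27 (SE), a 95% interval of 0.46 to 1.60 and an edgeR adjusted p of 0.0745. Without mutant library 1 the edgeR adjusted p was 0.019, whereas it reached 0.273 without parental library 2.

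Aldh1a2 (ENSMUSG00000013584.5, chromosome 9, 71215789 to 71296243, plus strand) encodes the retinaldehyde dehydrogenase, also called Raldh2, that forms retinoic acid in early mesoderm. Its values were 13.5, 22.2, 36.2 and 32.9 CPM in parental libraries 1 to 4 and 31.1, 33.3, 51.2 and 84.1 CPM in mutant libraries 1 to 4. The highest mutant values came from libraries 3 and 4, and mutant libraries 1 and 2 lay inside the parental range. The means were 26.2 ± 10.4 and 49.9 ± 24.5 CPM (SD, n = 4), and the log2 fold change was 0.92 ± 0.31 (SE; 95% interval 0.26 to 1.58) with an edgeR adjusted p of 0.199. Without mutant library 4, the library that stood apart, the log2 fold change was 0.56 with an edgeR adjusted p of 0.471.

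The pair varied in the same way from library to library within each line. In both lines libraries 1 and 2 had the lowest and libraries 3 and 4 the highest levels of both genes. The 2 other aldehyde dehydrogenases that can form retinoic acid were hardly counted: Aldh1a1 had 0 counts in every library and Aldh1a3 at most 5, so Aldh1a2 was the one enzyme of this step measured above the filter. Markers of cardiomyocytes moved in the other direction across the parental libraries. The summed level of 10 cardiomyocyte genes, all of them counted, was 3732, 2020, 923.8 and 650.9 CPM in parental libraries 1 to 4 and 855.2, 811.5, 994.8 and 124.8 CPM in mutant libraries 1 to 4. Their part in the difference between the lines was not tested.

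Dhrs3 and the Cyp26 enzymes act against retinoic acid and were counted at low levels. Dhrs3 (ENSMUSG00000066026.14, chromosome 4, 144892827 to 144928209, plus strand) encodes the reductase that turns retinaldehyde back into retinol. It was counted 9, 16, 9 and 11 times in the parental libraries and 25, 39, 24 and 0 times in the mutant libraries. Mutant libraries 1 to 3 were thus above every parental library while mutant library 4 had none, where the floor of 3 counts corresponds to 0.825 CPM. Fewer genes were counted in mutant library 4 than in any other, so a 0 there, for this or another gene, does not show absence. The log2 fold change of 1.05 ± 0.84 (SE) had a 95% interval of -0.72 to 2.82 and an edgeR adjusted p of 0.695. Without mutant library 4 it was 1.45 with an edgeR adjusted p of 0.365, and without mutant library 2, the highest, it was 0.48 with an edgeR adjusted p of 0.898. limma-voom gave 0.41 on all 8 libraries.

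Cyp26a1 (ENSMUSG00000024987.6, chromosome 19, 37697798 to 37701536, plus strand) encodes the main early embryonic enzyme that oxidises retinoic acid for disposal. Its values were 14.4, 13.1, 7.18 and 7.80 CPM in parental libraries 1 to 4 and 13.8, 3.49, 4.36 and 2.20 CPM in mutant libraries 1 to 4. Mutant libraries 2 to 4 were below every parental library, and mutant library 1 was close to the highest parental value. The means were 10.6 ± 3.65 and 5.95 ± 5.29 CPM (SD, n = 4), and the log2 fold change of -0.81 ± 0.51 (SE; 95% interval -1.87 to 0.26) had an edgeR adjusted p of 0.58. Without mutant library 1 the log2 fold change was -1.64 with an edgeR adjusted p of 0.168, the lowest of the alternatives. Cyp26b1 (ENSMUSG00000063415.12, chromosome 6, 84571414 to 84593908, minus strand), a second such enzyme, had 17, 14, 18 and 24 counts in parental libraries 1 to 4 and 6, 13, 13 and 0 in mutant libraries 1 to 4. Every mutant count was below every parental count, but after scaling for depth the lines overlapped, and the log2 fold change of -1.09 ± 0.84 (SE) had an edgeR adjusted p of 0.678. The remaining family member, Cyp26c1, had at most 1 count in any library.

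Counts of a synthesis and a breakdown enzyme can be set against each other within a library, a ratio that does not depend on how libraries are scaled. There were 0.937, 1.70, 5.04 and 4.22 Aldh1a2 counts per Cyp26a1 count in parental libraries 1 to 4. The ratio in mutant libraries 1 to 4 was 2.26, 9.56, 11.8 and 38.2. The last value rests on 8 counts of Cyp26a1. The lines overlapped because mutant library 1 lay inside the parental range, and the other 3 mutant libraries were above it. Rdh10 counts per Cyp26a1 count gave the same order of the lines, from 1.96 to 8.24 in parental and from 3.74 to 57.4 in mutant libraries. The ratios are a description and were not tested.

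**Figure D2:**
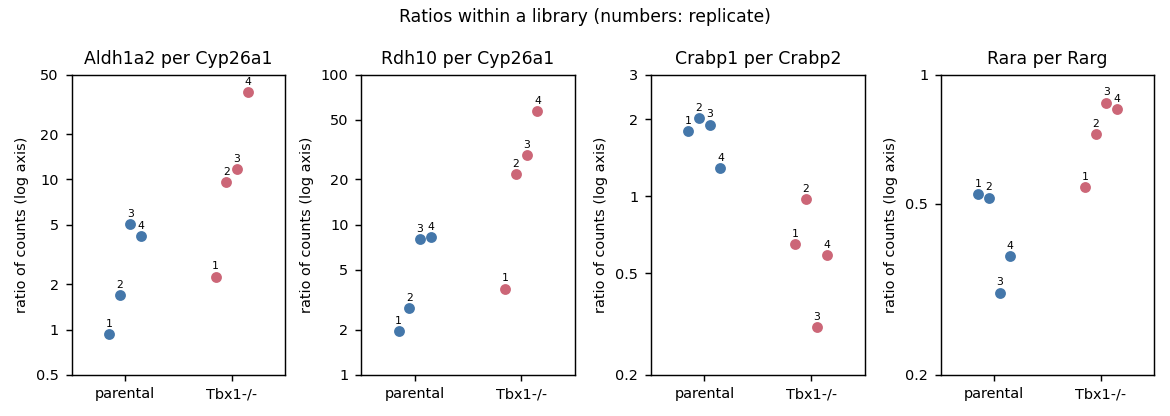
Ratio of the counts of 2 genes within each library (vertical axes, logarithmic), with parental libraries in blue, Tbx1-/- libraries in red and the replicate number at each point. Mutant libraries 2 to 4 lie above all parental libraries for Aldh1a2 per Cyp26a1 and Rdh10 per Cyp26a1, and the lines do not overlap for Crabp1 per Crabp2 or Rara per Rarg.

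The cellular binding proteins differed from each other. Crabp1 (ENSMUSG00000032291.8, chromosome 9, 54764748 to 54773110, plus strand) encodes a cytosolic protein that holds retinoic acid and has been linked to its breakdown. It was the most abundant of the 9 genes in the parental line and fell in the mutant line. Parental libraries 1 to 4 had 112.0, 140.3, 172.0 and 145.2 CPM, and mutant libraries 1 to 4 had 37.0, 103.1, 37.1 and 38.5 CPM. The lines did not overlap, a pattern that 7.52% of all tested genes showed, but mutant library 2 came within 10 CPM of the lowest parental library while the other 3 mutant libraries lay close together. The means of 142 ± 24.6 and 53.9 ± 32.8 CPM (SD, n = 4) correspond to a 2.64-fold lower level in the mutant line. edgeR gave a log2 fold change of -1.40 ± 0.26 (SE; 95% interval -1.96 to -0.85) and an adjusted p of 0.00787. The call held when each library was left out in turn, with an edgeR adjusted p of at most 0.0418.

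Crabp2 (ENSMUSG00000004885.5, chromosome 3, 87948666 to 87953376, plus strand), the relative that delivers retinoic acid to the nuclear receptors, had 62.0, 69.2, 90.2 and 112.5 CPM in parental libraries 1 to 4. Mutant libraries 1 to 4 had 56.8, 105.9, 120.2 and 65.4 CPM. The lines overlapped over most of their range, and the log2 fold change was 0.06 ± 0.22 (SE) with a 95% interval of -0.40 to 0.53. The edgeR adjusted p was 0.953, and the sign changed in 4 of the 16 alternatives. Counts of Crabp1 per count of Crabp2 were 1.81, 2.03, 1.91 and 1.29 in parental libraries 1 to 4 and 0.651, 0.973, 0.308 and 0.588 in mutant libraries 1 to 4. Crabp1 was thus the more abundant of the pair in all 4 parental libraries and Crabp2 in all 4 mutant libraries.

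Genes whose level followed that of Crabp1 from library to library were sought after the mean of each line had been subtracted, among genes with a mean of at least 10 CPM. The 3 most alike were Gm1673, Eya1 and Hoxb1, with Pearson correlations of 0.973, 0.953 and 0.947 over the 8 libraries. They are the highest values of a search over many genes with few libraries. Whether chance alone would give values this high was not tested. Eya1 encodes a transcriptional cofactor of the second heart field and pharynx, and Hoxb1 is a homeobox gene and a known direct target of retinoic acid. These correlations rest in part on mutant library 2, in which Crabp1 was high. With that library left out of the correlation they were 0.924, 0.816 and 0.791. The mutant mean that was subtracted still included it, so these values are not free of that library. Hoxb1 stood at 23.1, 30.7, 50.7 and 23.6 CPM in parental libraries 1 to 4 and at 5.21, 36.4, 2.36 and 2.75 CPM in mutant libraries 1 to 4. Mutant library 2 was inside the parental range, and the other 3 mutant libraries were below it.

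Markers of paraxial mesoderm, the trunk mesoderm beside the neural tube, moved with Crabp1. The summed level of the list of 10 genes, of which Msgn1 was at 0 in every library, was 46.9, 73.5, 75.0 and 53.9 CPM in parental libraries 1 to 4. It was 21.3, 104.2, 8.36 and 8.25 CPM in mutant libraries 1 to 4. The mutant library with the high Crabp1 level was thus also the one with the highest paraxial mesoderm level of all 8, and the other 3 mutant libraries were below the parental range in both. The part of these cells in the difference of Crabp1 was not tested. Without mutant library 2 the log2 fold change of Crabp1 was -1.93 with an edgeR adjusted p of 7.21e-06. That library was picked out for its high Crabp1 level, so the larger difference follows in part from the choice.

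**Figure D3:**
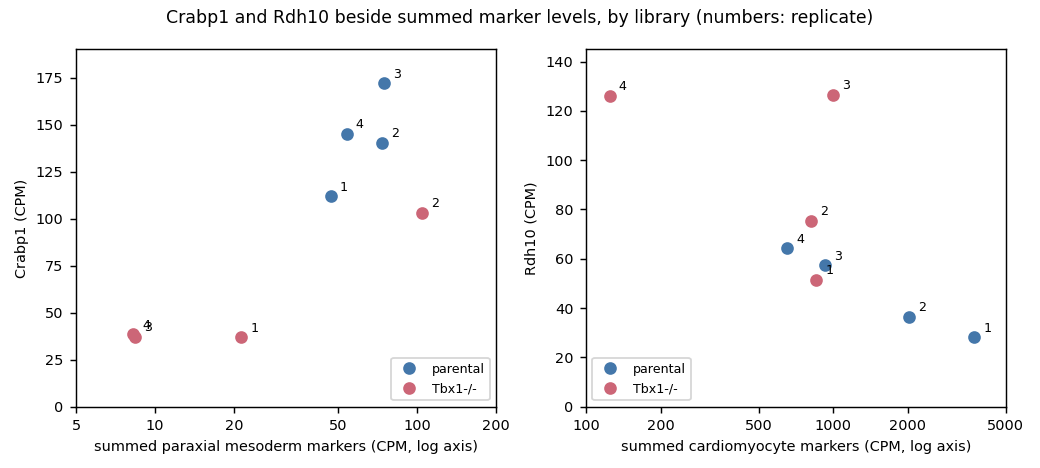
Crabp1 (left, CPM) against the summed level of 10 paraxial mesoderm markers and Rdh10 (right, CPM) against that of 10 cardiomyocyte markers (horizontal axes, CPM, logarithmic), 1 point per library with its replicate number. Mutant library 2 lies apart from the other 3 mutant libraries on the left, and parental libraries 1 and 2 have the highest cardiomyocyte levels, 3732 and 2020 CPM, and the lowest Rdh10 levels on the right.

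Of the nuclear receptors, Rara and Rarb belonged to the 9 genes. Rara (ENSMUSG00000037992.16, chromosome 11, 98927818 to 98974942, plus strand) encodes the broadly expressed receptor RAR alpha. Its spread between libraries was the smallest of the 8 tested genes relative to its mean, with 37.6, 37.9, 30.5 and 31.8 CPM in parental libraries 1 to 4 and 39.1, 47.9, 44.7 and 40.1 CPM in mutant libraries 1 to 4. All mutant libraries were above all parental ones by a narrow margin, and 7.52% of all tested genes had no overlap between the lines. The means of 34.4 ± 3.85 and 43.0 ± 4.10 CPM (SD, n = 4) gave a log2 fold change of 0.32 ± 0.18 (SE; 95% interval -0.05 to 0.69) and an edgeR adjusted p of 0.518. An snRNA gene, Gm22061, lies within Rara on the same strand.

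Rarb (ENSMUSG00000017491.9, chromosome 14, 16430839 to 16819156, minus strand) encodes RAR beta, whose own promoter holds the DR5 element shown above. It was close to undetected, with 0, 5, 0 and 1 counts in parental libraries 1 to 4 and 0, 0, 1 and 0 in mutant libraries 1 to 4. It did not pass the filter, and no change could have been detected with so few counts. Cyp26a1, the other gene with the element, was among the lower-expressed genes as well, since 71.9% of tested genes had a higher mean level.

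The third receptor of the family, Rarg, was the most abundant RAR gene in both lines. It stood at 81.8 ± 12.3 CPM in the parental and 59.5 ± 11.1 CPM in the mutant line (SD, n = 4). Its log2 fold change of -0.46 ± 0.16 (SE) had an edgeR adjusted p of 0.228. Counts of Rara per count of Rarg were 0.527, 0.517, 0.311 and 0.378 in parental libraries 1 to 4 and 0.547, 0.726, 0.860 and 0.830 in mutant libraries 1 to 4. The lines did not overlap in this ratio, which was not tested. Of the RXR partners, Rxra had a log2 fold change of -0.21 ± 0.22 (SE), Rxrb one of -0.10 ± 0.17, and Rxrg at most 6 counts in any library.

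**Figure D4:**
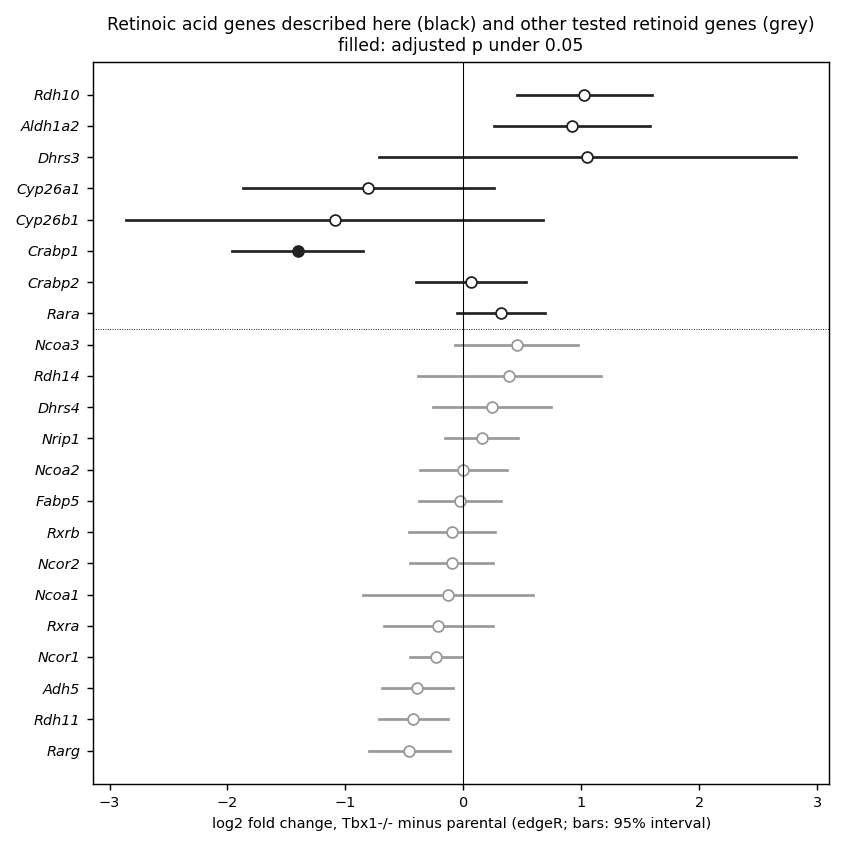
Log2 fold change (horizontal axis, Tbx1-/- minus parental, edgeR) with its 95% interval for the 8 tested retinoic acid genes (black, above the dotted line) and 14 other tested retinoid genes, those of oxidation, binding, receptors and co-regulators (grey). Crabp1, the filled point, is the one gene with an adjusted p under 0.05.

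A list of 28 other genes of vitamin A uptake, transport, oxidation and retinoid signalling was set beside the 9. Of these, 18 were tested and 0 were called by edgeR, with 6 at an unadjusted p under 0.05, and DESeq2 and limma-voom also called 0. Over all tested genes, edgeR called 1.42%, and 11.9% had an unadjusted p under 0.05. The median log2 fold change was -0.12 (-0.115) and 13 of the 18 were below 0. The smallest p belonged to Rdh11, a retinal reductase, with 82.6 ± 5.48 CPM (parental mean) and 61.5 ± 6.19 CPM (mutant mean; SD, n = 4) and an edgeR adjusted p of 0.169.

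Genes known to respond to retinoic acid were described from a list of 21, of which 17 were tested. edgeR called 0 of them, with 5 at an unadjusted p under 0.05, whereas DESeq2 and limma-voom called 1 each. Of all tested genes, edgeR called 1.42%, and 11.9% had an unadjusted p under 0.05. DESeq2 called 399 and limma-voom 252 of the 13280 genes. The median log2 fold change was -0.44, and 7 of the 17 were above 0. The 3 with the smallest p were Tgm2, Hoxd4 and Fgf8. Tgm2, a transglutaminase gene induced by retinoic acid in many cells, stood at 14.9, 23.7, 15.6 and 14.3 CPM in parental libraries 1 to 4 and at 36.5, 38.8, 27.8 and 24.7 CPM in mutant libraries 1 to 4. The lines did not overlap, as was so for 7.52% of all tested genes. Its log2 fold change of 0.90 ± 0.24 (SE) had an edgeR adjusted p of 0.0805 and a DESeq2 adjusted p of 0.0235.

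The homeobox genes of the list lay on the other side of zero. All 7 tested Hox genes of groups 1 to 4 had log2 fold changes below 0, from -1.46 for Hoxb1 to -0.44 for Hoxa2, in the main comparison and in each of the 16 alternatives. None was called in the main comparison. Hoxb1 and Hoxd4 were called by edgeR without the low-count filter (adjusted p of 2.88e-05 and 3.94e-07). The spread of single genes did not enter that fit, so these p-values are too small to be taken at face value. With a replicate block both were called (edgeR adjusted p of 0.0485 and 0.0216), but the replicate numbers were not taken to pair libraries. limma-voom called Hoxb1 (adjusted p = 0.0242), and edgeR called Hoxd4 without parental library 1 (adjusted p = 0.0186). Each of the 2 genes gained a call in 4 of the 16 alternatives only. Their edgeR adjusted p ranged up to 0.613 for Hoxb1 and 0.275 for Hoxd4. Hoxd4 had 144.7, 265.2, 256.3 and 300.0 CPM in parental libraries 1 to 4 and 115.6, 219.4, 117.2 and 112.7 CPM in mutant libraries 1 to 4. As with Crabp1 and Hoxb1, mutant library 2 stood above the other mutant libraries. Hoxd4 had a log2 fold change of -0.77 ± 0.22 (SE; edgeR adjusted p = 0.0892), and without mutant library 2 it was -1.08 with an edgeR adjusted p of 0.00542. Hoxb1 moved from -1.46 and an edgeR adjusted p of 0.313 to -3.20 and 0.000227 without that library. Mutant library 2 was picked out for its high values. The smaller p-values without it thus follow in part from that choice and are no further support. Fgf8, a growth factor gene that retinoic acid represses in the trunk, had 12.6 ± 5.61 CPM (parental mean) and 4.74 ± 2.20 CPM (mutant mean; SD, n = 4), with an edgeR adjusted p of 0.175.

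**Figure D5:**
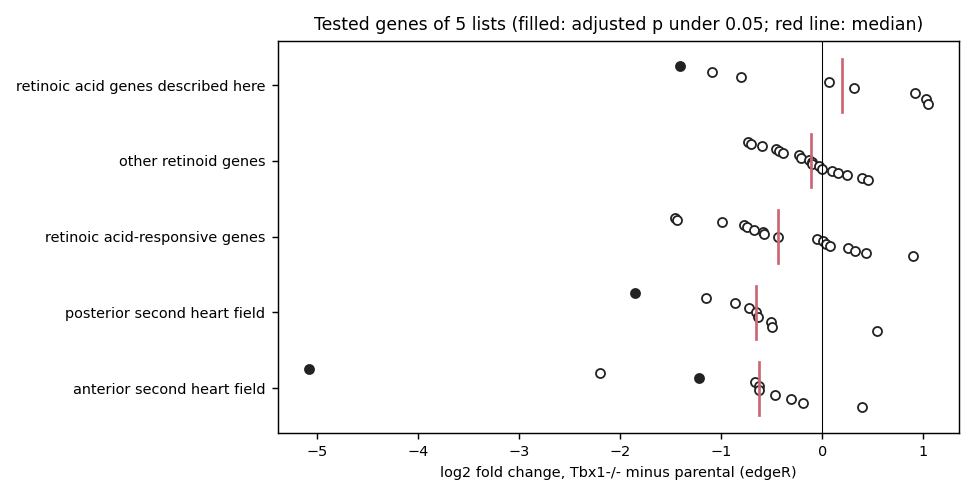
Log2 fold change (horizontal axis, Tbx1-/- minus parental, edgeR) of each tested gene in 5 lists, with the median of a list as a red line and genes with an adjusted p under 0.05 filled. The 8 tested retinoic acid genes spread to both sides of zero with a median of 0.19, whereas both second heart field lists have medians below -0.6.

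In the heart field lists, which hold regions of the embryo that differ in their exposure to retinoic acid, most genes had log2 fold changes below 0. Over all tested genes 6620 of 13280 were below 0, and 1.42% were called in either direction. Low medians were not particular to the heart field lists. Medians of the cell type lists ran from -1.35 (cardiomyocyte) to 0.46 (endothelial and blood), with -0.90 for paraxial mesoderm. Of 9 tested posterior second heart field genes 8 had negative log2 fold changes, with a median of -0.66. Osr1 was the one called, at 32.2 ± 7.22 CPM (parental mean) and 9.00 ± 8.05 CPM (mutant mean; SD, n = 4; edgeR adjusted p = 0.0372). The call of Osr1 was lost in 7 of the 16 alternatives, 6 of which omitted a single library, and its edgeR adjusted p ranged up to 0.126. Of 10 tested anterior second heart field genes 9 had negative log2 fold changes, with a median of -0.63, and the 2 called were Tbx1 itself and Fgf10. Fgf10, a growth factor gene of this field, had 25.8 ± 6.02 CPM (parental mean) and 11.1 ± 2.52 CPM (mutant mean; SD, n = 4; edgeR adjusted p = 0.0262). Its call was lost in 5 of the 16 alternatives, all of which omitted a single library, and its edgeR adjusted p ranged up to 0.146.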

How the data were processed

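The deposited table holds raw read counts per gene, as whole numbers, with 1 column for each of 8 QuantSeq libraries. STAR, featureCounts and build mm10 are named in the submitters' processing notes, and the name of the deposited table states forward-strand counting. Versions, the annotation and any removal of duplicate reads are not given in the sources used here. Of 55487 identifiers, 55227 matched a symbol in GENCODE M21 (GRCm38), after the version number was dropped. The filterByExpr function of edgeR left 13280 genes. After TMM scaling, the lines were compared with edgeR 4.0.16 in R 4.3.3 by the quasi-likelihood F test (two-sided, intercept and line), adjusted by Benjamini-Hochberg over all tested genes. SEs were derived from the fold change and F, and 95% intervals from the test's degrees of freedom. The floor of 3 counts covers counting error only, since PCR copies of 1 molecule can be counted more than once. The script was tested on simulated data. The genes and lists were chosen with earlier results of these data known. Named were the 9 genes, Tbx1, the called genes of each pathway list (or the 3 with the smallest p), the tested receptors, and the 3 genes most like Crabp1; 1 selected gene is left out of the text. Hoxa2, Aldh1a1, Aldh1a3, Cyp26c1, Rxrg, Msgn1, Gm22061, Foxa2, Krt18 and Gata6 were named after their values or positions were seen. No pair of libraries agreed within sampling noise, since chi-square per degree of freedom was 6.67 to 22.1. Alternatives were RLE, upper-quartile and library-size scaling, other filters, DESeq2 1.42.0, limma-voom (limma 3.58.1), a replicate block, and leaving out each library.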

Additional observations from a re-analysis of the deposited data

Results flagged for a closer look

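A value was picked out when its gap to the nearest of the other 3 libraries of its line, divided by the range of the 4, exceeded Dixon's critical value for groups of 4, which chance gives for about 1 in 20 groups. Of 41 groups checked, 5 were picked out, and 4 of the 5 came from mutant library 2. Eya1 and Hoxb1 were among the genes checked because their levels followed that of Crabp1 from library to library. Their values in mutant library 2 are thus not independent of the Crabp1 value. Crabp1 stood at 103 CPM in mutant library 2, against 37.0 to 38.5 CPM in the other mutant libraries. Hoxb1 stood at 36.4 CPM, Hoxd4 at 219 CPM and Eya1 at 32.2 CPM in the same library, each above the other 3 mutant libraries. The summed level of paraxial mesoderm markers in that library was 104.2 CPM, and its part in these values was not tested. In the parental line Tgm2 stood at 23.7 CPM in library 2, against 14.3 to 15.6 CPM in the other 3.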

How the results depend on the processing

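The call of Crabp1 held in all 16 alternatives, with a log2 fold change from -1.93 to -1.26 and an adjusted p of at most 0.0418. Rara, Cyp26a1, Cyp26b1 and Dhrs3 kept their sign and gained no call. DESeq2 gave no adjusted p for Cyp26b1, Dhrs3, Hoxb1 and Tbx1. Crabp2 lay between -0.14 (-0.141) and 0.24 (0.237) when single libraries were left out, and reversed to -0.06 (-0.058), -0.02 (-0.022), -0.05 and -0.14 without parental replicates 1 and 2 and mutant replicates 2 and 3. Without the low-count filter 439 genes were called, among them 3 of the 9 retinoic acid genes (Crabp1, Rdh10 and Aldh1a2), 2 other retinoid genes, 3 responsive genes and 7 heart field genes. The spread of single genes did not enter that fit, whose prior degrees of freedom were infinite. DESeq2 called 399 genes, 1 responsive gene and 5 heart field genes, and limma-voom 1 and 5. Leaving out 1 library gave 103 to 235 genes, 1 to 2 of the 9 genes, 0 to 3 responsive genes and 1 to 4 heart field genes, and the lowest total came without parental replicate 2. Library size alone gave 157 genes, 63.7% of them higher in the mutant line against 52.7% in the main comparison.

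Deviations from the line means correlated between same-numbered libraries at values of -0.033 to 0.102, so the numbers were not taken to pair them. A replicate block in the model gave 234 called genes, and 3 of the 9: Crabp1 (adjusted p = 0.000853), Rdh10 (0.001) and Aldh1a2 (0.0334). The block also called 2 responsive genes, Hoxb1 and Hoxd4. The causes of these shifts were not tested. Depth limits Rarb, Dhrs3 and Cyp26b1 most, with at most 39 counts in any library.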
